A study of Mus musculus with 8 samples.

Results

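The genes described here are 39 genes of the sarcomere and of striated muscle, chosen by name for their role in muscle at a time when earlier results of these data were known. All 39 were among the 18193 genes tested, and each gene's value is that of its brightest probe set over the 8 arrays. RNA was measured on 8 Affymetrix mouse arrays in 4 groups of 2 arrays each, every array from its own culture. The groups were menin-null PILECs, wild-type PILECs, menin-null mESCs and wild-type mESCs. The mESCs are mouse embryonic stem cells, and PILECs are cells resembling pancreatic endocrine cells that were grown from them through embryoid bodies. Menin-null cells, from the line 3.2N, carried an inactivated Men1 gene, and TC-1 was the wild-type line. Both lines have the 129S6/SvEvTac background. Each genotype was 1 line, so line and genotype cannot be told apart. Men1 RNA, which checks the labels, was 7.95 and 8.02 in menin-null PILECs, 10.06 and 9.92 in wild-type PILECs, 7.77 and 7.82 in menin-null mESCs and 9.90 and 9.97 in wild-type mESCs on the log2 scale of the deposited values.

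Striated muscle contracts through sarcomeres, in which thick filaments of myosin pull on thin filaments of actin. Troponin C, I and T sit on the thin filament and make the pull depend on calcium, which the sarcoplasmic reticulum releases after a nerve signal reaches acetylcholine receptors on the fibre. Alpha-actinin anchors thin filaments in the Z-disc, myomesin holds thick filaments together in the M-band, and titin spans the distance between both. Most of these proteins exist in embryonic, slow, fast and cardiac forms encoded by separate genes, and immature muscle of the trunk and of the heart shares several of them. Pancreatic endocrine cells are not known for any of these filaments, but cultures grown from embryoid bodies can hold other cell types. In such bulk RNA, fewer muscle cells and less muscle RNA per cell cannot be told apart.

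Sarcomere RNA was lower in menin-null PILECs. Of the 39 genes 19 fell in menin-null PILECs against wild-type PILECs by limma with Benjamini-Hochberg adjustment over all 18193 genes (adjusted p under 0.05), while 4.42% of all genes fell. The same test called 0 of the 39 higher, with 1 higher at an unadjusted p under 0.05, and 2.26% of all genes rose. The median log2 difference was -0.58 over the 39 genes and -0.01 over all genes tested. With quantile normalization applied again, 19 of the 39 still fell, but the split over all genes moved to 611 higher and 741 lower (412 and 804 as deposited). By the study's own cut-offs of 2-fold and an unadjusted p of 0.005, 14 of the 39 were lower and 0 higher, against 0.544% and 0.286% of all genes. Both menin-null PILEC arrays lay below both wild-type PILEC arrays for 27 of the 39 genes and above both for 4, which was so for 30.0% and 24.7% of all genes. For 1 gene with 2 arrays a group, exact permutation gives no p below 0.333, so the adjusted p-values rest on variances shared across genes, and they reflect culture-to-culture spread within 1 line. The count depended on single arrays, being 5 when array 2 of the wild-type PILECs was left out and 12 when array 2 of the menin-null PILECs was, and the genes lower among all 18193, 804 with all arrays, then numbered 100 and 260.

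**Figure D1:**
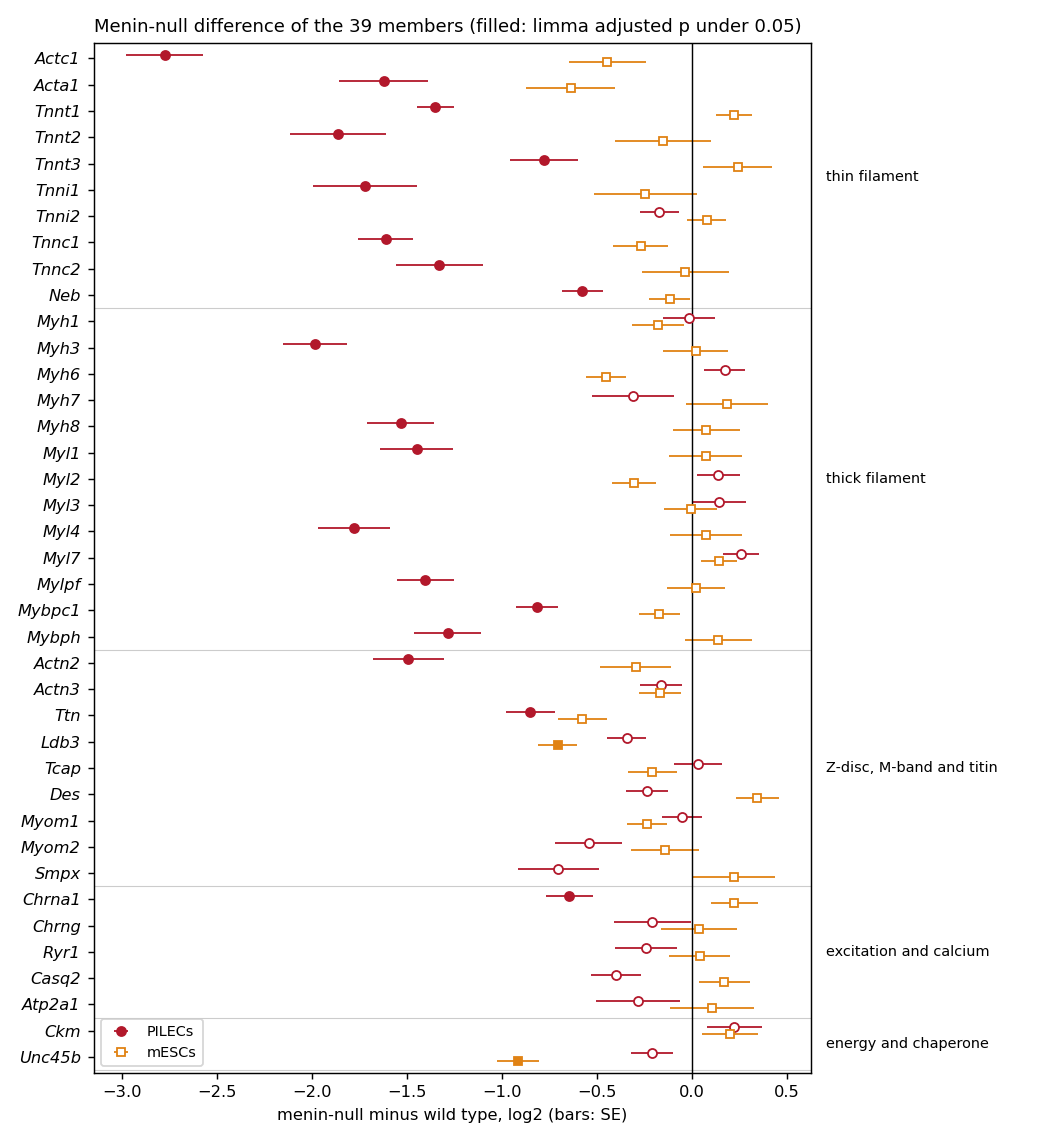
Menin-null minus wild-type log2 difference (x axis, with its standard error as a bar) of each of the 39 genes, in PILECs (circles) and in mESCs (squares), grouped by role; filled symbols passed an adjusted p under 0.05. The 19 filled circles all lie left of 0, between -2.78 and -0.58, and only 2 squares are filled.

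The genes whose call held under every alternative setting that could be applied to them were Actc1, Myh3, Mylpf, Tnnt1 and Tnnc1. The only Tnnt1 probe set carries a suffix that marks probes able to match several transcripts. Tnnt1 was therefore not tested when such probe sets were left out. Actc1, the actin of the heart and of embryonic skeletal muscle, measured 8.90 and 8.43 in menin-null PILECs and 11.29 and 11.60 in wild-type PILECs. The pairs did not overlap, and the distance between them was several times the distance within either pair. Its difference was -2.78 (SE 0.20, 6.86-fold lower, adjusted p = 0.000719). Myh3, the embryonic myosin heavy chain, measured 7.82 and 7.47 in menin-null PILECs and 9.43 and 9.83 in wild-type PILECs (difference -1.99, SE 0.17, adjusted p = 0.00174). Mylpf, the fast skeletal regulatory light chain, measured 9.40 and 9.06 in menin-null PILECs, against 10.46 and 10.81 in wild-type PILECs (-1.40, SE 0.15, adjusted p = 0.00382). Both menin-null arrays were thus below both wild-type arrays for each of these myosins. Tnnt1, the slow skeletal troponin T, measured 6.38 and 6.28 in menin-null PILECs, against 7.58 and 7.78 in wild-type PILECs (-1.35, SE 0.10, adjusted p = 0.000659). Tnnc1, the troponin C of slow and cardiac muscle, measured 8.78 and 8.51 in menin-null PILECs, against 10.07 and 10.45 in wild-type PILECs (-1.61, SE 0.15, adjusted p = 0.0021). Neither troponin had an array of one genotype inside the range of the other.

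The promoters of these 5 genes are shown because their calls held under every alternative setting that could be applied to them. Each line holds the 250 bases before the RefSeq start site on assembly GRCm38.p6, in the direction of the gene. Capitals mark E-boxes (CANNTG, the core bound by myogenic factors such as MyoD and myogenin), CArG boxes (bound by serum response factor) and the TATA box TATAAA. The stretches are chr2:114052876-114053125 on the minus strand for Actc1, chr11:67078050-67078299 on the plus strand for Myh3, chr7:127211358-127211607 on the plus strand for Mylpf, chr7:4515976-4516225 on the minus strand for Tnnt1 and chr14:31208062-31208311 on the plus strand for Tnnc1.
Actc1: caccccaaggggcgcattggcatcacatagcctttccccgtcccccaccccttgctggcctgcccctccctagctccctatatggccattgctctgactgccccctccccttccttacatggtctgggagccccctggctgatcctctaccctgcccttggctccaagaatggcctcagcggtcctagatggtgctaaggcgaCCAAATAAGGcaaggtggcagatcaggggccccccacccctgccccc
Myh3: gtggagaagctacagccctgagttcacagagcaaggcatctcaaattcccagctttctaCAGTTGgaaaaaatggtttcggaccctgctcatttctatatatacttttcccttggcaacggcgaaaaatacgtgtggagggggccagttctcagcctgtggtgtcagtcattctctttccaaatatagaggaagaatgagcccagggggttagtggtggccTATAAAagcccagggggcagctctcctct
Mylpf: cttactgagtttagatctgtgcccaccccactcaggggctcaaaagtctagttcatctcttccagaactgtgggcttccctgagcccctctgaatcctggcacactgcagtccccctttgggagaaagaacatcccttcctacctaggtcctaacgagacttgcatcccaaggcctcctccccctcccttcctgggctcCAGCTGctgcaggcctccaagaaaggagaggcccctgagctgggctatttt
Tnnt1: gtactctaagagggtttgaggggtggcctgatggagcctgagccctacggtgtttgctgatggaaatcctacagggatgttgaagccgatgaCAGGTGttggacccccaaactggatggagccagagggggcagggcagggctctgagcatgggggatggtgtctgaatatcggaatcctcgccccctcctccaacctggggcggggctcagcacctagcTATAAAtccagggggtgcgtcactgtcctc
Tnnc1: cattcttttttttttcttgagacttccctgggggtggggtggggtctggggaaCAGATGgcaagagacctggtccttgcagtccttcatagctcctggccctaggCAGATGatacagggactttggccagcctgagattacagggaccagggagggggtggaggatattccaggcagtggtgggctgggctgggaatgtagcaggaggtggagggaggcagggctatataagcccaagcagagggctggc

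Counting back from the start site, the Actc1 stretch held a CArG box that begins at base -47 and no CANNTG. Myh3 held an E-box at -191 and a TATA box at -29. Mylpf held the E-box CAGCTG at -51. Tnnt1 held an E-box at -158, which reads CACCTG on the other strand, and a TATA box at -30. Tnnc1 held 2 E-boxes, at -197 and -145. These genes thus share no marked motif that all 5 hold.

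Of the 39 genes 33 matched a RefSeq promoter window, and 17 of these were among the genes that fell. Motifs were searched on both strands in the 250 bases before the start, and CAGCTG and CACCTG are themselves forms of CANNTG. Any E-box was in 27 of the 33 windows and in 66.1% of 27018 windows of all genes. CAGCTG was in 12 of the 33, of which 8 were of genes that fell and 4 of genes that were not called, and in 12.8% of all windows. CACCTG was in 8 of the 33 and in 17.1% of all windows. The CArG box was in 6 of the 33 (Acta1, Actc1, Ldb3, Myl3, Myl7 and Myom1) and in 1.4% of all windows, and the binding motif of MEF2 factors was in 4 of the 33 (Casq2, Myh1, Myh8 and Ttn) and in 3.01% of all windows. TATAAA was in 7 of the 33 and in 13% of all windows. The CArG box stood before 2 genes that fell and 4 that were not called. In the same order the counts were 15 and 12 for any E-box, 6 and 2 for CACCTG, 2 and 2 for the MEF2 motif and 6 and 1 for TATAAA. The windows numbered 17 for genes that fell and 16 for genes that were not called. Whether these splits differ was not tested, and the matches describe letters, not binding.

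**Figure D2:**
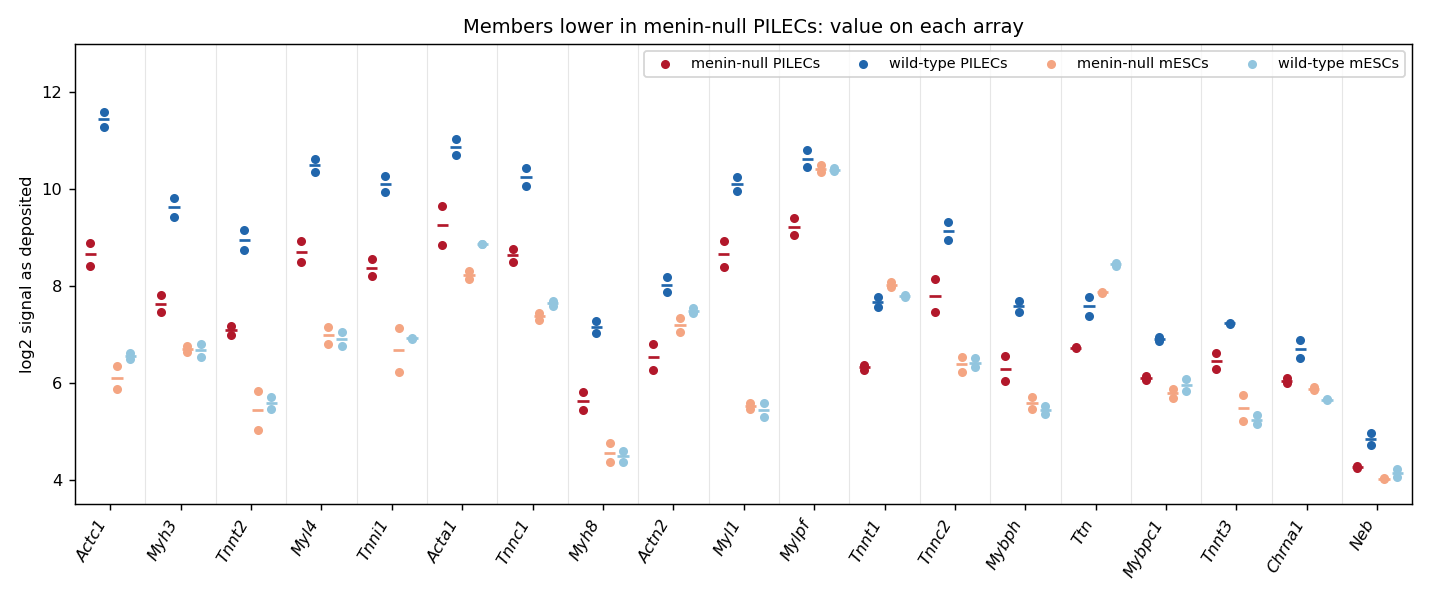
Deposited log2 signal (y axis) on each array for the 19 genes that were lower in menin-null PILECs, ordered by the size of the difference (points are arrays, dashes are group means). In every gene both menin-null PILEC arrays lie below both wild-type PILEC arrays, while the mESC arrays of the genotypes lie near each other for most genes. Heights of different genes come from different probe sets and are not comparable.

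Of the 10 thin filament genes 9 fell in menin-null PILECs, with a median difference of -1.48. Acta1, the skeletal alpha-actin, measured 9.66 and 8.86 in menin-null PILECs and 10.72 and 11.05 in wild-type PILECs (-1.62, SE 0.23, adjusted p = 0.0099). Its menin-null arrays differed by more than its wild-type arrays, and both were below them. Tnni1, the slow skeletal troponin I, measured 8.56 and 8.21 in menin-null PILECs, against 9.94 and 10.28 in wild-type PILECs (-1.72, SE 0.27, adjusted p = 0.0144). Tnnc2, the fast skeletal troponin C, measured 8.15 and 7.47 in menin-null PILECs, against 8.96 and 9.32 in wild-type PILECs (-1.33, SE 0.23, adjusted p = 0.0191). The wild-type arrays were the higher ones for both, without overlap. Tnnt3, the fast skeletal troponin T, measured 6.62 and 6.30 in menin-null PILECs, against 7.23 and 7.24 in wild-type PILECs (-0.78, SE 0.18, adjusted p = 0.0448). Neb, for nebulin, the protein that runs along the thin filament of skeletal muscle, measured 4.29 and 4.26 in menin-null PILECs, against 4.72 and 4.98 in wild-type PILECs (-0.58, SE 0.11, adjusted p = 0.024). These last differences were the smallest among the thin filament genes that fell, and the Neb values were dim in every group. The thin filament gene that was not called was Tnni2, the fast skeletal troponin I, at 7.07 and 6.90 in menin-null PILECs and 7.21 and 7.10 in wild-type PILECs (-0.17, 95% interval -0.41 to 0.07, adjusted p = 0.365).

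Tnnt2, the cardiac troponin T, which embryonic skeletal muscle also makes, measured 7.19 and 7.0 in menin-null PILECs and 8.75 and 9.16 in wild-type PILECs (-1.86, SE 0.25, adjusted p = 0.00792). Its 3 probe sets did not give the same answer. The second probe set measured 7.23 and 6.57 in menin-null PILECs, against 9.13 and 9.38 in wild-type PILECs, a difference of -2.36 (adjusted p = 0.00134 in a limma fit of 34945 probe sets). The third measured 4.95 and 4.64 in menin-null PILECs and 4.71 and 4.59 in wild-type PILECs, a difference of 0.14 (adjusted p = 0.635). The pairs overlapped on the third probe set alone, which was dim on all arrays. The other 2 probe sets carry a suffix that marks probes able to match several transcripts. With such probe sets left out, Tnnt2 is read from the third, and its difference was then 0.14 (adjusted p = 0.604).

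Several calls of thin filament genes needed all arrays. With array 2 of the wild-type PILECs left out, the adjusted p was 0.107 for Acta1, 0.0858 for Tnnt2, 0.128 for Tnni1, 0.148 for Tnnc2, 0.212 for Tnnt3 and 0.151 for Neb. With array 1 of that group left out, it was 0.0582 for Acta1, 0.0772 for Tnni1, 0.079 for Tnnc2, 0.206 for Tnnt3 and 0.0543 for Neb. With array 2 of the menin-null PILECs left out, it was 0.0578 for Tnnt2, 0.0771 for Tnni1, 0.0639 for Tnnc2, 0.158 for Tnnt3 and 0.0886 for Neb. With their array 1 left out, it was 0.0543 for Tnni1, 0.0865 for Tnnt3 and 0.0924 for Neb. The Tnnt3 call was also lost without either array of the wild-type mESCs (0.0749) and with the replicate number as a block (0.0561). The differences kept their sign each time.

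Of the 13 thick filament genes 7 fell in menin-null PILECs, with a median difference of -0.81. Myh8, the perinatal myosin heavy chain, measured 5.82 and 5.45 in menin-null PILECs and 7.04 and 7.29 in wild-type PILECs (-1.53, SE 0.18, adjusted p = 0.00492). Myl4, the light chain of atrial and embryonic muscle, measured 8.93 and 8.50 in menin-null PILECs, against 10.36 and 10.63 in wild-type PILECs (-1.78, SE 0.19, adjusted p = 0.00367). Myl1, the skeletal essential light chain, measured 8.93 and 8.39 in menin-null PILECs, against 9.96 and 10.26 in wild-type PILECs (-1.45, SE 0.19, adjusted p = 0.00763). In each of them all menin-null values were the lower ones. Mybpc1, the slow skeletal myosin-binding protein C, measured 6.07 and 6.15 in menin-null PILECs, against 6.88 and 6.96 in wild-type PILECs (-0.81, SE 0.11, adjusted p = 0.00794). Mybph, the related myosin-binding protein H, measured 6.56 and 6.04 in menin-null PILECs, against 7.48 and 7.69 in wild-type PILECs (-1.29, SE 0.18, adjusted p = 0.00823). The pairs were apart for both binding proteins. With array 2 of the wild-type PILECs left out, the adjusted p was 0.0599 for Myh8, 0.0505 for Myl4, 0.0842 for Myl1, 0.0848 for Mybpc1 and 0.0911 for Mybph. With their array 1 left out, it was 0.061 for Mybpc1 and 0.0557 for Mybph. The Mybpc1 call was also lost without array 1 of the menin-null PILECs (0.0506) and with its probe sets averaged (-0.47, adjusted p = 0.0517).

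The other 6 thick filament genes were not called in PILECs. Myh6, the alpha heavy chain of the heart, measured 4.98 and 4.90 in menin-null PILECs and 4.76 and 4.78 in wild-type PILECs (0.17, 95% interval -0.07 to 0.42, adjusted p = 0.382). Myh7, the beta heavy chain of heart and slow muscle, measured 6.60 and 6.55 in menin-null PILECs and 6.90 and 6.87 in wild-type PILECs (-0.31, 95% interval -0.82 to 0.19, adjusted p = 0.446). Myh1, an adult fast heavy chain, measured 5.60 and 5.67 in menin-null PILECs, between the 5.45 and 5.86 of wild-type PILECs (-0.02, 95% interval -0.34 to 0.30, adjusted p = 0.957). Myh6, Myh7 and Myh1 were dim in both PILEC groups, under 7 on every array. A fall like that of Myh3 may not be measurable on such probe sets. Among light chains, Myl2, of the ventricle and slow muscle, measured 4.37 and 4.47 in menin-null PILECs and 4.23 and 4.33 in wild-type PILECs (0.14, adjusted p = 0.526). Myl3, also of the ventricle and slow muscle, measured 7.33 and 6.89 in menin-null PILECs and 6.92 and 7.01 in wild-type PILECs (0.14, adjusted p = 0.606). Myl7, of the atrium, measured 5.89 and 5.97 in menin-null PILECs and 5.66 and 5.69 in wild-type PILECs (0.26, adjusted p = 0.148). Myl2 and Myl7 were likewise under 7 on every PILEC array. Myl7 was the member higher in menin-null PILECs at an unadjusted p under 0.05.

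Neighbouring paralogues differed in their calls. In the gene order of assembly GRCm38.p6, Myh3, Myh2, Myh1, Myh4 and Myh8 follow each other on chromosome 11 with 0 other protein-coding genes between them. The outer genes of this row, the embryonic Myh3 and the perinatal Myh8, fell in menin-null PILECs by 1.99 and 1.53. The adult fast genes between them differed by 0.15 (Myh2, SE 0.09), -0.02 (Myh1, SE 0.14) and 0.14 (Myh4, SE 0.09), and none of the 3 was called. The other probe sets of Myh1 differed by -0.26 and -0.31, with the pairs apart. Limma over all probe sets called neither (adjusted p = 0.323 and 0.127). All 3 adult fast genes were dim, under 7 in every group, and whether their probe sets could show a fall was not tested. Of the troponin pairs, Tnni1 and Tnnt2 lie on chromosome 1 with 1 coding gene between them, and both fell (-1.72 and -1.86). Tnni2 and Tnnt3 lie on chromosome 7 with 1 coding gene between them (-0.17, not called, and -0.78, called). The other probe sets of Tnni2 differed by -0.43 and 0.13, and limma called neither (adjusted p = 0.169 and 0.797). Tnnt1 lies next to Tnni3, the cardiac troponin I, on chromosome 7 (-1.35, called, and 0.28, adjusted p = 0.203). Myh2, Myh4 and Tnni3 are not among the 39 genes and were added for their position after values had been seen.

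The Z-disc, the M-band and titin link the filaments. In the Z-disc, M-band and titin group 2 of 9 genes fell (4.42% of all genes did), with a median of -0.34. Actn2, an alpha-actinin of heart and skeletal muscle, measured 6.81 and 6.28 in menin-null PILECs and 7.88 and 8.19 in wild-type PILECs (-1.49, SE 0.19, adjusted p = 0.00603). Ttn, for titin, measured 6.72 and 6.75 in menin-null PILECs, against 7.38 and 7.79 in wild-type PILECs (-0.85, SE 0.13, adjusted p = 0.0125). For both the pairs did not overlap. With array 2 of the wild-type PILECs left out, the adjusted p was 0.0771 for Actn2 and 0.0546 for Ttn. The Ttn call was also lost without array 1 (0.0673) or array 2 (0.0611) of the menin-null PILECs, with its probe sets averaged (-0.40, adjusted p = 0.0733) and without probe sets that can match several transcripts (-0.73, adjusted p = 0.0941). Actn3, the alpha-actinin of fast fibres, measured 6.53 and 6.32 in menin-null PILECs and 6.50 and 6.69 in wild-type PILECs, which overlap (-0.16, 95% interval -0.42 to 0.09, adjusted p = 0.422). Des, for desmin, the intermediate filament of muscle, measured 7.75 and 7.72 in menin-null PILECs and 7.80 and 8.13 in wild-type PILECs (-0.23, adjusted p = 0.258). Of the remaining genes, Ldb3, Tcap, Myom1, Myom2 and Smpx, the differences lay between -0.70 (Smpx, adjusted p = 0.0982) and 0.03 (Tcap, adjusted p = 0.913), and Myom1 and Tcap overlapped.

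In the excitation and calcium group 1 of 5 genes fell (4.42% of all genes did), with a median of -0.28. It was Chrna1, the alpha subunit of the muscle acetylcholine receptor, at 6.10 and 6.01 in menin-null PILECs and 6.52 and 6.89 in wild-type PILECs (-0.65, SE 0.12, adjusted p = 0.0251). The pairs were apart, and all these values were under 7, a level taken here as dim because no background was measured. Leaving out array 1 (adjusted p = 0.0865) or array 2 (0.1) of the menin-null PILECs, array 2 of the wild-type PILECs (0.122) or either array of the wild-type mESCs (0.0549) ended the call. Chrng, the fetal gamma subunit of the same receptor, measured 6.92 and 6.27 in menin-null PILECs and 6.71 and 6.89 in wild-type PILECs (-0.21, 95% interval -0.68 to 0.26, adjusted p = 0.6). The menin-null arrays of Chrng lay on both sides of the wild-type arrays. Ryr1, the calcium release channel, Casq2, the cardiac calsequestrin, and Atp2a1, the calcium pump of fast muscle, differed by -0.24, -0.40 and -0.28 (adjusted p = 0.424, 0.123 and 0.505). In the energy and chaperone group neither Ckm, the muscle creatine kinase (0.22, adjusted p = 0.41), nor Unc45b, a chaperone of myosin (-0.21, adjusted p = 0.301), was called in PILECs.

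Of the 20 genes not called in PILECs 14 had a difference below 0, and 8 had overlapping arrays. Among all genes both menin-null arrays lay below both wild-type arrays for 30.0% and above for 24.7%, and the rest overlapped. The counts of the uncalled genes are thus given as values only. Of the 19 genes that fell 16 had a wild-type PILEC mean of at least 7, and the other 3 were under 7 in both PILEC groups.

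In mESCs few of these genes differed between genotypes. Limma called 2 of the 39 lower and 0 higher in menin-null mESCs against wild-type mESCs (2 higher at an unadjusted p under 0.05), while 2.36% of all genes fell and 1.29% rose. The median difference was -0.01 over the 39 genes and 0.01 over all genes. Ldb3, a Z-disc scaffold, measured 6.50 and 6.55 in menin-null mESCs and 7.36 and 7.10 in wild-type mESCs (-0.71, SE 0.10, adjusted p = 0.0139). Unc45b measured 5.36 and 5.63 in menin-null mESCs, against 6.50 and 6.33 in wild-type mESCs (-0.92, SE 0.11, adjusted p = 0.00746). The pairs were apart for both, and neither gene was called in PILECs. With array 1 of the wild-type mESCs left out, 0 of the 39 passed in limma (adjusted p = 0.109 for Ldb3 and 0.0796 for Unc45b, with 5 genes at an unadjusted p under 0.05). None of the 19 genes that fell in PILECs was called in mESCs. The mESC differences of Ttn (-0.58, limma adjusted p = 0.0576) and Acta1 (-0.64, adjusted p = 0.198) were below 0 but not called. At an unadjusted p under 0.05 in limma, 6 of the 39 were lower and 2 higher in menin-null mESCs. In both directions together this was 8 of the 39, a share near that of all genes (3370 of 18193).

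The menin-null effect itself differed between the cell types for 11 of the 39 genes. The difference between the effects (PILECs minus mESCs, adjusted p under 0.05 over all genes) was called below 0 for 11 and above 0 for 0 of them, with 4 above 0 at an unadjusted p under 0.05, while 1.57% and 1.50% of all genes were called in these directions. The 11 were Actc1, Myh3, Myl4, Tnnt2, Myh8, Tnnt1, Myl1, Mylpf, Mybph, Tnnc1 and Chrna1. For Tnnt1, which differed by -1.35 in PILECs and by 0.22 in mESCs, the difference of effects was -1.57 (SE 0.14, adjusted p = 0.00272). For Actc1 it was -2.33 (SE 0.29, adjusted p = 0.0119), and for Myh3 it was -2.01 (SE 0.24, adjusted p = 0.0116). Tnnt1 alone was called under every alternative that could be applied to it. Leaving out array 1 or array 2 of the wild-type PILECs gave counts of 4 and 1, leaving out array 1 or array 2 of the wild-type mESCs gave 2 and 3, and leaving out array 2 of the menin-null PILECs gave 3. The calls over all genes, 557 with all arrays, numbered 72, 75, 66, 75 and 209 in these fits. With the replicate number as a block 7 of the 39 and 286 of all genes were called. A call above 0 came up for 1 of the 39, Unc45b, at 0.71 with probe sets averaged or with a trended and robust prior and at 0.84 without array 2 of the menin-null mESCs. For the other 8 genes that fell in PILECs the difference of effects was not called and lay between -1.48 (Tnni1, adjusted p = 0.094) and -0.28 (Ttn, adjusted p = 0.475).

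**Figure D3:**
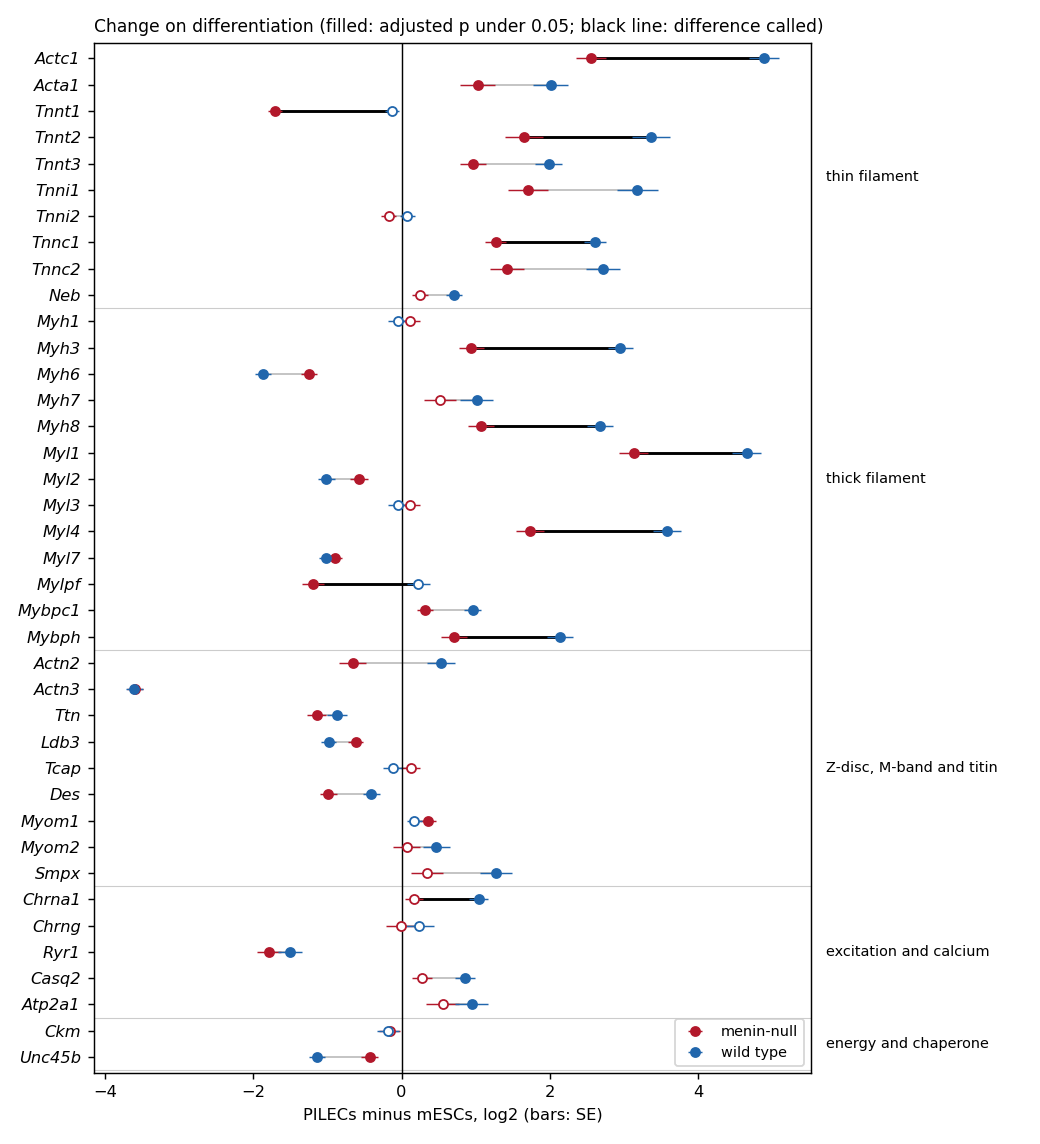
PILECs minus mESCs log2 difference (x axis, with its standard error as a bar) for menin-null and wild-type cells, by role; filled points passed an adjusted p under 0.05, and a black line joins the points of the 11 genes whose difference between genotypes was called. Each black line has its menin-null point on the left.

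With differentiation the 39 genes moved in both directions. In menin-null cells 14 were higher and 12 lower in PILECs than in mESCs, against 28.9% and 36.1% of all genes. In wild-type cells 21 were higher and 9 lower, against 27.8% and 35.3% of all genes. In both directions together 26 of the 39 were called in menin-null cells, a share near that of all genes (11830 of 18193), and 30 of the 39 in wild-type cells (11477 of all genes). Of the genes higher in PILECs 13 were so in both genotypes and 8 by call in wild-type cells alone, which does not by itself show that these 8 differ between genotypes. The genotypes' differences share the arrays of the comparisons above, so they are given as values only.

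Actc1, Myl1, Myl4, Myh3 and Tnnt2 rose with differentiation in both genotypes, and by less in menin-null cells, where the difference of effects was called for each. Actc1 measured 6.35 and 5.89 in menin-null mESCs and 6.50 and 6.62 in wild-type mESCs, and PILECs exceeded mESCs by 2.55 in menin-null cells and 4.88 in wild-type cells. Myl1 measured 5.46 and 5.60 in menin-null mESCs and 5.60 and 5.31 in wild-type mESCs, and PILECs exceeded mESCs by 3.13 in menin-null cells and 4.65 in wild-type cells. Myl4 measured 6.81 and 7.16 in menin-null mESCs and 7.06 and 6.76 in wild-type mESCs, and PILECs exceeded mESCs by 1.73 in menin-null cells and 3.58 in wild-type cells. For these genes all PILEC arrays of either genotype lay above all mESC arrays. The gain of Myh3 was 0.94 in menin-null cells and 2.95 in wild-type cells. The gain of Tnnt2 was 1.65 in menin-null cells and 3.36 in wild-type cells. In all, 16 of the 19 genes that fell in menin-null PILECs rose with differentiation in wild-type cells, and 13 rose in menin-null cells. Among all genes, 27.8% rose with wild-type differentiation and 28.9% with menin-null differentiation. The 19 genes were picked with the same PILEC arrays, which favours a rise in the wild type over one without menin. These counts are therefore given as values only.

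Mylpf and Tnnt1 followed another course. Mylpf measured 10.35 and 10.50 in menin-null mESCs and 10.37 and 10.44 in wild-type mESCs. Its PILECs were lower than its mESCs by 1.20 in menin-null cells (difference -1.20, adjusted p = 0.000158), whereas the wild-type difference was 0.23 (adjusted p = 0.227). Tnnt1 measured 7.98 and 8.08 in menin-null mESCs and 7.83 and 7.79 in wild-type mESCs. Its difference was -1.70 in menin-null cells and -0.13 in wild-type cells (adjusted p = 0.282 in the wild type). For both genes the menin-null PILECs were the low group of the 4, and the other groups lay close together. Actn2 moved in opposite directions, by -0.66 in menin-null cells (adjusted p = 0.0148) and 0.54 in wild-type cells (adjusted p = 0.0366), with the difference of effects not called. Ttn was lower in PILECs of both genotypes (-1.14 in menin-null and -0.87 in wild-type cells), but its probe sets differed: the wild-type difference was 0.00 with all its probe sets averaged and 0.95 (adjusted p = 0.00438) without probe sets that can match several transcripts.

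Among the 20 genes not called in PILECs, 8 were lower in wild-type PILECs than in wild-type mESCs, 5 were higher and 7 did not pass. Actn3 measured 9.98 and 10.07 in menin-null mESCs and 10.26 and 10.13 in wild-type mESCs, and its PILECs were lower by 3.60 on the log2 scale in both genotypes (differences -3.60 and -3.60, adjusted p = 6.93e-08 in menin-null cells). Ryr1 measured 8.01 and 8.27 in menin-null mESCs and 8.15 and 8.06 in wild-type mESCs, with differences of -1.79 in menin-null and -1.50 in wild-type cells. Myh6 measured 6.23 and 6.14 in menin-null mESCs and 6.77 and 6.50 in wild-type mESCs, with differences of -1.24 in menin-null and -1.87 in wild-type cells. For these 3 genes all PILEC arrays of either genotype lay below all mESC arrays, and Myh6 was under 7 in every group.

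**Figure D4:**
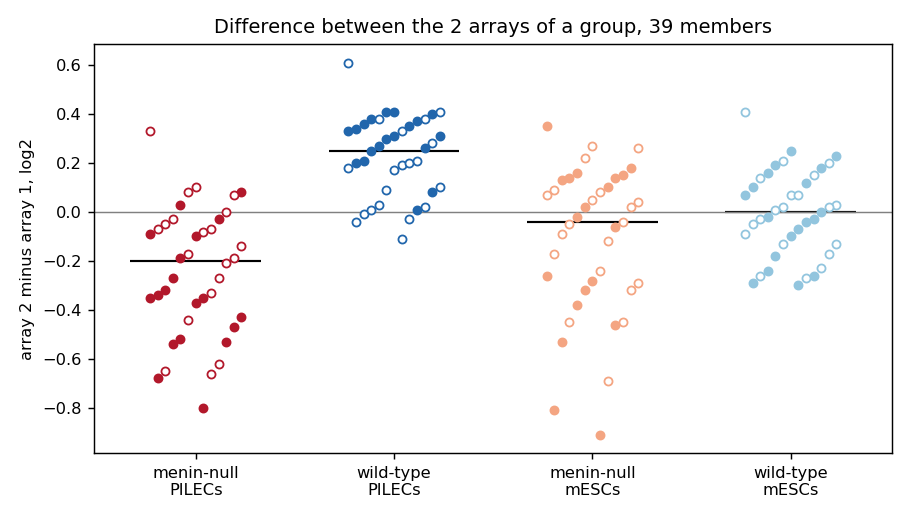
Array 2 minus array 1 within each group (y axis, log2) for the 39 genes; filled points are the 19 genes lower in menin-null PILECs and black bars are medians over the 39. The wild-type PILEC points lie mostly above 0 and the menin-null PILEC points mostly below.

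The muscle genes also differed between replicate PILEC cultures. In menin-null PILECs array 1 was the higher one for 33 of the 39 genes and for 17 of the 19 that fell, with a median difference (array 2 minus array 1) of -0.20 over the 39. In wild-type PILECs array 2 was the higher one for 35 of the 39 genes and for 19 of the 19 that fell, with a median difference of 0.25. Over all genes array 2 was the higher one for 52.6% in menin-null PILECs and for 43.4% in wild-type PILECs. In mESCs array 2 was the higher one for 18 of the 39 genes in menin-null and for 20 in wild-type cells. The linear signals of the 39 genes summed to 7002 and 5421 in menin-null PILECs, 14718 and 18198 in wild-type PILECs, 6452 and 6512 in menin-null mESCs and 6967 and 6864 in wild-type mESCs. Such sums are carried by the few brightest probe sets, among them Mylpf and Actn3 in mESCs.

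**Figure D5:**
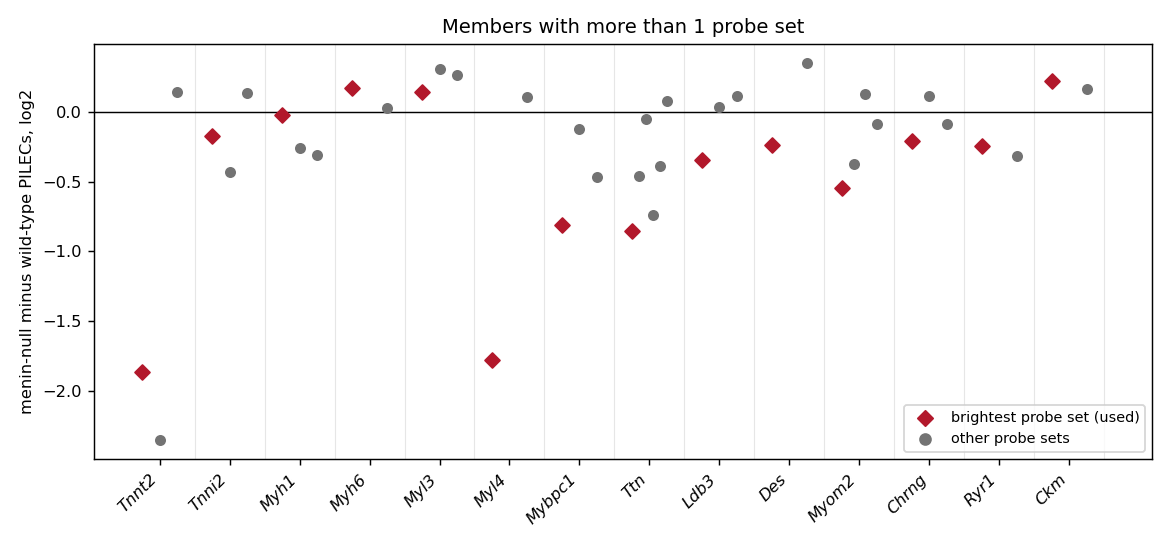
Menin-null minus wild-type PILEC log2 difference (y axis) for every probe set of the 14 genes with more than 1; diamonds are the brightest probe sets, used throughout, and circles the others. Tnnt2 has 2 low probe sets, and Myl4 has 1 low and 1 near 0.

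The remaining probe sets of these genes were counted apart. Together the 39 genes had 66 probe sets, and 14 genes had more than 1. Of the 27 probe sets not used, limma over 34945 probe sets called 1 lower, the second of Tnnt2, and 0 higher, while 2.56% of all probe sets were called lower and 1.31% higher. Of the 10 that belong to genes that fell, 7 had a difference below 0. The second probe set of Myl4 measured 7.62 and 7.52 in menin-null PILECs and 7.44 and 7.47 in wild-type PILECs, a difference of 0.11 (adjusted p = 0.679), and it did not share the fall of the brighter one.

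Regulators of muscle were counted in lists of named genes. Among all genes 4.42% fell and 2.26% rose in menin-null PILECs. Of 19 myogenic transcription factors 5 fell and 0 rose in menin-null PILECs (8 at an unadjusted p under 0.05, median -0.24). Myog, for myogenin, which drives myoblasts into differentiation, measured 7.40 and 6.78 in menin-null PILECs, 9.24 and 9.52 in wild-type PILECs, 6.06 and 6.23 in menin-null mESCs and 5.86 and 5.62 in wild-type mESCs. Its PILEC difference was -2.29 (SE 0.20, adjusted p = 0.00197), and the pairs did not overlap. Myod1, Myf5 and Myf6, the other factors of that family, differed by -0.33, -0.19 and -0.20 and were not called (adjusted p = 0.173, 0.505 and 0.237). Vgll3 (-0.85, adjusted p = 0.0406), Six4 (-0.63, adjusted p = 0.0143) and Hes6 (-0.50, adjusted p = 0.0187) fell as well. Of 12 cardiac regulators and peptides 2 rose and 0 fell, with a median of 0.04. At an unadjusted p under 0.05 there were 4, not all of them higher, and the differences of the list lay between -0.69 and 1.34. The cardiac factor Gata4 measured 7.70 and 7.68 in menin-null PILECs, against 6.32 and 6.39 in wild-type PILECs (1.34, SE 0.08, adjusted p = 0.000262), and Irx4 differed by 0.68 (adjusted p = 0.0331). The calls of Vgll3, Six4, Hes6 and Irx4 were lost when single arrays were left out, with adjusted p up to 0.212, 0.111, 0.13 and 0.197.

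Other muscle genes were counted in the same way, beside the 4.42% of all genes that fell and the 2.26% that rose. A single call in a short list is not read as a change of that list. Of 37 other sarcomere and Z-disc genes 4 fell and 0 rose (11 at an unadjusted p under 0.05, median -0.10), among them Cryab, a small heat shock protein that binds desmin, by 1.02 (adjusted p = 0.0165). Of 21 genes of excitation and calcium release 3 fell and 1 rose, and Srl, for sarcalumenin, fell by 0.65 (adjusted p = 0.00823). Of 11 genes of myoblast fusion and adhesion 2 fell, and Mymx, a fusion peptide, measured 4.54 and 4.89 in menin-null PILECs and 5.69 and 5.84 in wild-type PILECs (-1.05, adjusted p = 0.00504), against 10.92 and 11.01 in menin-null mESCs and 10.89 and 10.86 in wild-type mESCs. Whether this probe set, bright in mESCs, reads the transcript of the fusion peptide was not tested. Of 12 neuromuscular junction genes 1 rose, and of 16 genes of muscle metabolism 1 rose. Of 16 non-muscle relatives of actin, myosin and actinin limma called 0 (2 at an unadjusted p under 0.05, median -0.05), and their summed signal was 79292 to 80476 in menin-null PILECs and 81675 to 84839 in wild-type PILECs. Several of these calls were lost without single arrays, with adjusted p up to 0.132 for Cryab, 0.0848 for Srl and 0.0652 for Mymx.

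Markers of other cell types were counted beside these results, again against 4.42% lower and 2.26% higher among all genes. A single call in such a list is not read as a change of the cell type. Limma called 0 of 14 islet endocrine markers (5 at an unadjusted p under 0.05), whose summed signal was 2787 to 3100 in menin-null PILECs, 2924 to 3343 in wild-type PILECs, 1785 to 1808 in menin-null mESCs and 1869 to 1931 in wild-type mESCs. The insulin gene Ins2 measured 7.55 and 7.19 in menin-null PILECs, 7.13 and 7.33 in wild-type PILECs, 7.28 and 7.09 in menin-null mESCs and 6.65 and 6.99 in wild-type mESCs, and its PILEC and mESC arrays overlapped in menin-null cells, whereas in the wild type the PILEC arrays were the higher ones (adjusted p = 0.0533). Ins2 was added after its values had been seen and does not stand for the list. With differentiation 8 of the 14 islet markers were higher and 1 lower in menin-null cells, and 6 higher and 3 lower in wild-type cells. Of all genes 28.9% were higher and 36.1% lower in menin-null cells, and 27.8% and 35.3% in wild-type cells. Of 9 smooth muscle markers 0 were called in PILECs (1 at an unadjusted p under 0.05), with sums of 925 to 1184 in menin-null and 1101 to 1177 in wild-type PILECs. Of 10 pluripotency markers 5 fell, with sums of 8062 to 8589 in menin-null and 10943 to 12233 in wild-type PILECs. Of 7 adipocyte markers 3 fell, with sums of 490 to 501 in menin-null and 1017 to 1094 in wild-type PILECs. Of 14 fibroblast and matrix markers 4 fell and 1 rose, with sums of 45327 to 56269 in menin-null and 53384 to 59301 in wild-type PILECs. Of 9 glia markers 4 rose, with sums of 12811 to 13417 in menin-null and 12802 to 13529 in wild-type PILECs, and of 12 neuron markers 1 rose, with sums of 57732 to 65804 in menin-null and 56708 to 58581 in wild-type PILECs. Of 10 endothelium and blood markers 0 were called (1 at an unadjusted p under 0.05). The part of these cell types in the muscle result was not tested.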

How the data were processed

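Total RNA of 8 cultures was measured on Affymetrix mouse expression arrays, 1 per culture, whose genome build is not given in the sources used here. The authors deposited 1 log2 value per probe set and array. RMA and Partek are named in the submitters' processing notes (without versions) and Microarray Analysis Suite in the methods, so the software behind the values is not settled. Of 45101 probe sets, 64 controls, 9160 with no gene symbol and 932 with several were left out, and each of 18193 genes was read from its brightest probe set. Groups came from the sample titles. A mean per group was fitted with limma 3.58.1 under R 4.3.3 to the 8 arrays together (lmFit and eBayes, 4 residual and 3.72 prior degrees of freedom), with Benjamini-Hochberg adjustment over all genes. The step was tested on simulated data. The number of arrays limits the precision. The 39 genes and the other lists were chosen with earlier results of these data known. All 39 are counted. Values on every array are given for members called in PILECs and their families, and of other lists at most 4 called genes and the Myod1 family are named. Alternatives changed the probe set choice, scaling, prior, filter, arrays and threshold. Promoters are from RefSeq on GRCm38.p6. The R package data.table in version 1.17.8, and pandas 2.3.3 and matplotlib 3.10.9, handled tables and plots.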

Additional observations from a re-analysis of the deposited data

Results flagged for a closer look

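For 11 genes the menin-null effect in PILECs differed from that in mESCs by a test of the difference itself (limma, adjusted over all genes). The difference of the effects, PILECs minus mESCs on the log2 scale, was -2.33 for Actc1 (adjusted p = 0.0119), -2.01 for Myh3 (0.0116), -1.86 for Myl4 (0.0179), -1.71 for Tnnt2 (0.0495), -1.61 for Myh8 (0.0218), -1.57 for Tnnt1 (0.00272), -1.52 for Myl1 (0.032), -1.42 for Mylpf (0.0196), -1.42 for Mybph (0.0301), -1.34 for Tnnc1 (0.0213) and -0.87 for Chrna1 (0.0436). In mESCs the effects of these genes lay between -0.44 (Actc1) and 0.22 (Tnnt1 and Chrna1), and in PILECs between -2.78 (Actc1) and -0.65 (Chrna1). Leaving out single arrays took the number called to between 1 and 14, and the lowest count was without wild-type PILEC array 2.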

How the results depend on the processing

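Of the 19 genes that fell in menin-null PILECs, 5 kept their call under every alternative that applied to them, 6 lost it under 1 or 2, and 8 under 3 or more. The PILEC count was 12 of 32 when probe sets with the suffix s, x or a (probes that can match several transcripts) were dropped, and leaving out 1 array gave 5 to 19. The mESC count of 2 was 1 with probe sets averaged, 0 with only the groups compared (10 at an unadjusted p under 0.05), 0 at the study's threshold, and 0 to 3 without 1 array. The differentiation counts without 1 array were 27 to 30 in wild-type and 24 to 27 in menin-null cells, where the study's threshold gave 15. The count of 11 for the difference of effects was 17 (16 lower, 1 higher) with a trended and robust prior and 1 to 14 without 1 array (the 14 with 1 higher), and it could not be fitted on fewer groups. The replicate numbers share only a number (correlations of the deviations between groups, -0.28 to 0.21). With the replicate number as a block the counts were 18 in PILECs, 2 in mESCs, 29 and 27 for wild-type and menin-null differentiation, and 7 for the difference of effects. Over all genes in PILECs, 1216 were called, 2348 with the trended and robust prior, 734 with the block, 151 at the study's threshold and 143 to 1622 without 1 array.

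With those probe sets dropped, 6 signs turned: Tnnt2 in PILECs (0.142) and in the difference of effects (0.169), Synpo2l in PILECs (0.0591), Asph in mESCs (0.295) and in menin-null differentiation (-0.225), and Ttn in wild-type differentiation (0.951). Acta1, Myl1, Tnni1, Tnnt1 and Tnnt3, which fell in menin-null PILECs, had only such probe sets. Dropping them left these genes out, so their calls were not tested in that setting. With probe sets averaged, Asph in mESCs (0.0631) and Ttn in wild-type differentiation (0.0011) turned. Centring each array on its median put the median of all genes at -0.19 in menin-null differentiation, against -0.07 as deposited, and 12 of the 39 genes were then higher and 13 lower. The cause was not tested. With 2 arrays per group and no measured background, differences of dim genes are the least certain.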
